A study of Mus musculus with 4 samples.

Results

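Transcripts of 5 signals that lymphocytes secrete, Xcl1, Ccl3, Ccl4, Ccl5 and Ifng, were followed through the immune cells of the mouse ovary. They were taken by symbol from the deposited gene list, in which all 5 were found among 32285 genes, and the rule uses no measured value. Values were read in single cells gated on marker genes that do not include these 5. The gonadotropin group held 5 female C57BL/6J mice given gonadotropin, and the untreated group held 5 female C57BL/6J mice that the design text gives as saline controls. All were 10 to 12 weeks old, and ovaries were taken 48 h after treatment. The gonadotropin is not named further in the labels. Viable CD45+ cells were sorted and marked mouse by mouse with TotalSeq-B hashtags, and each group then went into 1 pooled 10x Genomics Chromium 3' library of 5 mice. The treatment and the pool therefore cannot be told apart in any comparison here.

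XCL1 is the ligand of XCR1, a receptor of cross-presenting dendritic cells. CCL3, CCL4 and CCL5 are inflammatory chemokines that draw monocytes, T cells and NK cells, and CCL3 and CCL5 act through CCR1. Interferon gamma, the product of Ifng, signals through IFNGR1 and IFNGR2 and raises antigen presentation and macrophage activity. NK cells, group 1 innate lymphoid cells (ILC1) and memory T cells are the classical sources of these signals, and NK cells are well known residents of the reproductive tract.

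After filters, 2423 gonadotropin and 2495 untreated cells were analysed, with a median of 7034 and 7664 UMIs (unique molecular identifiers, 1 per captured transcript). Gonadotropin mice gave 290 to 828 cells each and untreated mice 296 to 726. The 2 pools shared 4 cell barcode sequences, 2 of them among the analysed cells. The NK gate held 473 cells, 93, 20, 43, 118 and 49 in gonadotropin mice 1 to 5 and 21, 46, 28, 18 and 37 in untreated mice 1 to 5. Its label was checked on perforin and granzyme B transcripts, which the gate did not use: Prf1 was found in 97.0% and Gzmb in 74.6% of NK-gated cells, against 56.4% and 21.8% of the 55 ILC1-gated cells. Cd3e was found in 0.423% of NK-gated cells and Cd79a in 4.44%. The T gates held 1251 cells, of which 295 were of memory type (89 CD4, 61 CD8 and 145 with neither coreceptor), and the B gate held 2438. Cells with neither coreceptor, also called double-negative, are T cells without a Cd4, Cd8a or Cd8b1 UMI. A transcript that is present can go uncaptured, so CD4 or CD8 cells may be among them. A further 181 T cells of naive type also lacked these UMIs. Mouse numbers only name the hashtags within a pool. P-values measure the spread between mice of 1 pool each.

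In the GRCm38.p6 assembly Xcl1 lies at chr1:164931644-164935522 and Ifng at chr10:118441046-118445894. The 3 CC chemokine genes share a stretch of chromosome 11, with Ccl5 at chr11:83525778-83530518, Ccl3 at chr11:83647843-83649378 and Ccl4 at chr11:83648624-83664683. The annotated spans of Ccl3 and Ccl4 overlap by 755 bases. Whether counting used the strand is not given in the sources used here, so reads within that overlap could be assigned to either gene. RefSeq promoter windows, 250 bases before to 50 after the start, were found for 3 of the 5 genes. They are shown because, among gates of at least 50 cells, NK cells and ILC1 had the highest levels of these 3 genes, with the motif matches found on either strand in capitals.

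Xcl1, chr1:164935473-164935772, minus strand: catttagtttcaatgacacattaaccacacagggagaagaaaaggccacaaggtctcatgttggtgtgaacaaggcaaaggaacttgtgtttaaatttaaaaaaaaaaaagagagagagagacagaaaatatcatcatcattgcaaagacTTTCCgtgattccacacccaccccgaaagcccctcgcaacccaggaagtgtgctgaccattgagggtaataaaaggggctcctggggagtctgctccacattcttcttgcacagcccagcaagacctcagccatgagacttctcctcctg
Ifng, chr10:118440796-118441095, plus strand: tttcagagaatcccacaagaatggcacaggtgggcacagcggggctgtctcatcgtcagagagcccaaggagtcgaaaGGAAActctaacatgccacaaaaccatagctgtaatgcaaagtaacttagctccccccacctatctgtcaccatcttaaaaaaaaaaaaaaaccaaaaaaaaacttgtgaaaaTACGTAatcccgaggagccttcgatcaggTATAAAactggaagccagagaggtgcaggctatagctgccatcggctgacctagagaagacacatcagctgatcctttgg
Ccl3, chr11:83649329-83649628, minus strand: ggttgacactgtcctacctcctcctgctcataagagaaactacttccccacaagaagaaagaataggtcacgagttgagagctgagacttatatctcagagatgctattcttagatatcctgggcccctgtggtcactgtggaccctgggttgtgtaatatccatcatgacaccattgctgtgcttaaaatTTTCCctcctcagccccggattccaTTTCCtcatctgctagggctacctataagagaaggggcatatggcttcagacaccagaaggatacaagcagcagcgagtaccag

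Both strands of each window were searched for known motifs. The core that NFAT factors bind, written GGAAA, was found in all 3 windows, and 61.3% of 27025 promoter windows of the same length also held it. The Ifng window alone held the letters TATAAA of the TATA box, 30 bases before the start, which 14.2% of all windows held. It alone held the CRE-like motif, written TACGTA, which 0.955% of all windows held. The T-box factor motif, written AGGTGT and found in 13.9% of windows, was in none of these 3. Nor were the consensus motifs of AP-1 and NF-kappa B, found in 7.93% and 18.2% of windows. Matches are given as descriptions only.

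Among the 13 gates with at least 50 cells, the NK gate had the highest level of Ccl3, Ccl4, Ccl5 and Ifng, and ILC1 had that of Xcl1. A smaller set of 18 cells, with equal numbers of NK and ILC1 markers and left undivided, had 3281 CPM of Xcl1 and 4455 CPM of Ccl4, above both gates, and 1 of its cells held 426 of the 641 Ccl4 UMIs. Levels are given as CPM, the UMIs of a gene per 1000000 UMIs of the cells in a gate, over all mice, with the range over mice that had at least 5 cells of that gate. They compare gates within 1 gene, and not 1 gene with another. Ccl5 stood at 10643 CPM in the NK gate, with 9056 to 11718 CPM over 10 mice, and was found in 99.6% of cells. CD8 memory-type T cells followed at 10029 CPM (3198 to 15985 CPM over 6 mice), and the 2 ranges overlapped. T cells of memory type with neither coreceptor had 3225 CPM of Ccl5, ILC1 2619 CPM and CD4 memory-type cells 1426 CPM. Each of these ranges overlapped with that of the gate above it. In naive CD4 cells Ccl5 stood at 1.97 CPM.

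Xcl1 had another order. Among the 13 gates it was highest in ILC1 at 1461 CPM (754 to 3531 CPM over 7 mice), where 94.5% of cells held at least 1 UMI, and second in NK cells at 827 CPM (337 to 1447 CPM over 10 mice), where 52.4% did. After each cell was thinned to 2000 UMIs these shares were 79.6% and 37.6%. The T cells of memory type with neither coreceptor had 341 CPM (229 to 455 CPM over 10 mice), and their range lay above that of CD8 memory-type cells at 127 CPM (0 to 219 CPM over 6 mice). Among those T cells with neither coreceptor, 14.5% held Ncr1, an NK and ILC receptor, against 8.20% of CD8 and 0% of CD4 memory-type cells. Dendritic cells, macrophages, neutrophils and naive CD4 T cells held no Xcl1 UMI.

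Ccl3 was concentrated in NK cells at 734 CPM (392 to 888 CPM over 10 mice). Of the 13 gates, ILC1 followed at 198 CPM (17.1 to 694 CPM over 7 mice), neutrophils at 126 CPM and monocytes at 40.6 CPM. Cells outside every gate held 218 of the 3142 Ccl3 UMIs, against 104 in the ILC1 gate. CD4 T cells of memory and of naive type held no Ccl3 UMI. Among the 13 gates Ccl4 reached 2724 CPM in NK cells (997 to 4360 CPM over 10 mice), 487 CPM in ILC1, 188 CPM in dendritic cells and 134 CPM in CD8 memory-type T cells. The 94 cells outside every gate had 657 CPM. The dendritic value rested on few cells, since the 5 richest of 86 held 92.7% of the UMIs.

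Ifng had its highest level in the NK gate at 189 CPM (113 to 271 CPM over 10 mice), ahead of ILC1 at 103 CPM. The CD4, double-negative and CD8 memory-type T cells followed at 84.0, 83.8 and 44.7 CPM. All neighbouring ranges in this order overlapped. Naive CD4 cells, dendritic cells, monocytes and macrophages held no Ifng UMI. For the 373 monocyte-gated and macrophage-gated cells a count of 0 allows a share of cells with a UMI of up to 0.804%.

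B cells served as the measure of free RNA, since they are not a classical source of XCL1 or interferon gamma. That reason does not cover Ccl3, Ccl4 and Ccl5. Erythrocyte genes summed to 46.3 to 45238 CPM in B-gated cells of gonadotropin mice, against 4.31 to 6.91 CPM in untreated mice. Whether this bears on B cells as a measure of free RNA was not tested. A UMI was found in 0.205% of B-gated cells for Xcl1, 0.615% for Ccl3, 1.64% for Ccl4, 3.40% for Ccl5 and 0.246% for Ifng, at median depths of 6220 UMIs in gonadotropin and 7239 UMIs in untreated mice. NK-gated cells had median depths of 6679 and 6559 UMIs. All 5 shares in the NK gate were above these. For Ccl4 the share, not thinned, was 2.83 ± 1.14% of B-gated cells in gonadotropin and 0.884 ± 0.425% in untreated mice (SD, n = 5 each). The groups met at 1.32%, and the difference did not pass the adjustment (exact permutation p = 0.0159, adjusted p = 0.230 over 11428 genes). The 4 richest B-gated cells held 55 of 56 Xcl1 UMIs, 393 of 473 Ccl5 UMIs, 70 of 120 Ccl4 UMIs and 19 of 31 Ccl3 UMIs, while the 6 Ifng UMIs sat in 6 cells. Without the B-gated cells that also carried an NK or T marker UMI, 1 Xcl1, 72 Ccl5, 53 Ccl4, 17 Ccl3 and 5 Ifng UMIs were left.

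**Figure D1:**
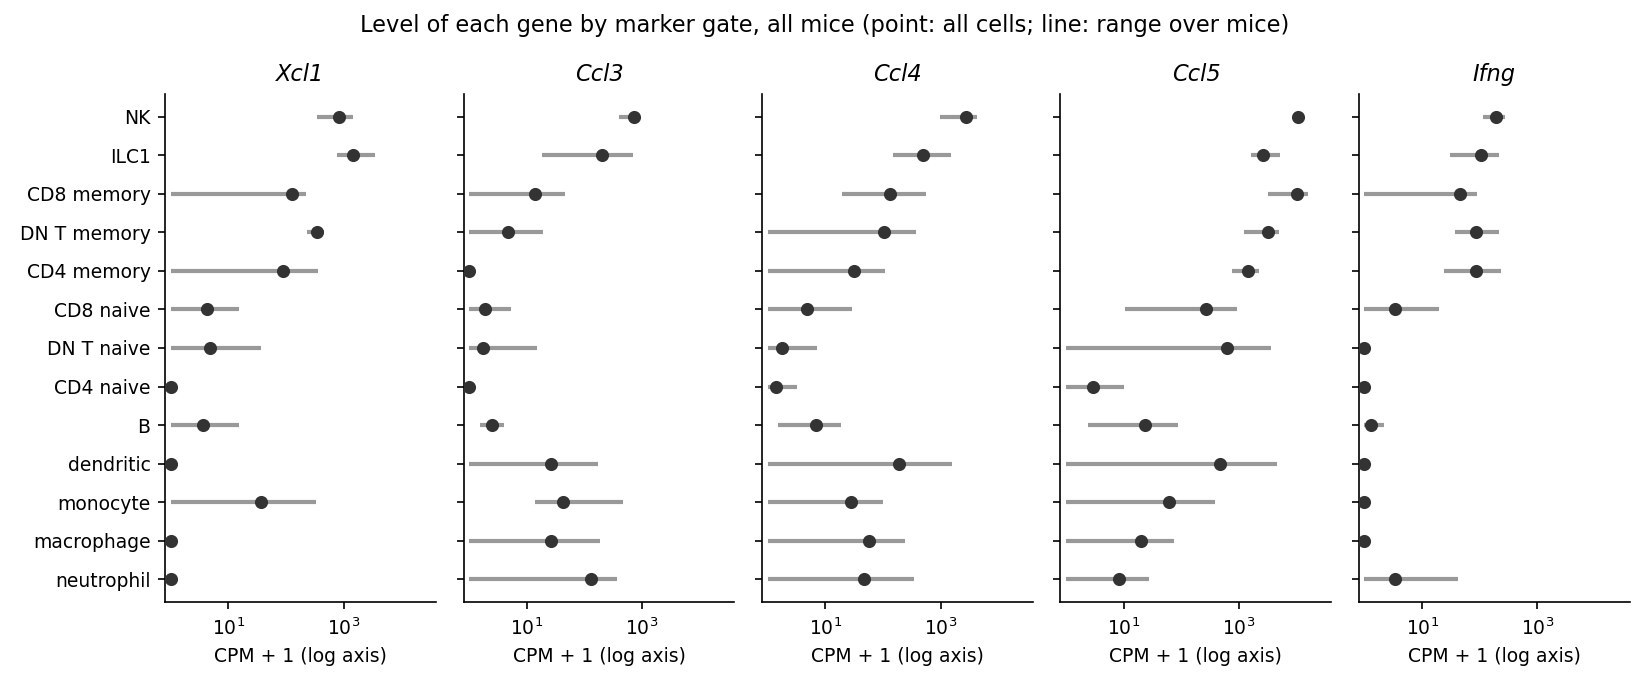
Level of each gene in 13 marker gates, as CPM + 1 on a log axis; points are all cells of both groups and lines the range over mice with at least 5 cells. Ccl5 stood at 10643 CPM in the NK and 10029 CPM in the CD8 memory-type gate, Xcl1 was highest of these 13 gates in ILC1 at 1461 CPM, and Ifng was at 0 in naive CD4 T cells, dendritic cells, monocytes and macrophages.

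For each gene, other genes with the most alike levels over the 13 gates were found by Pearson's r of log2(CPM + 10), among 10165 genes. They are a description over 13 gates that share 2 libraries. Ifng was closest to Tbx21, the T-box factor that drives type 1 lymphocytes (r = 0.988), then Actr1b and Kcnj8. Xcl1 was closest to the NK receptor Klrb1c (r = 0.975), then Fhl2 and Klre1, and Klrb1c and Klre1 had defined the NK and ILC gate. Ccl5 was closest to Sh2b1 (r = 0.939), the activating receptor gene Klrk1 and Vps72. Ccl4 was closest to Kcnip3 (r = 0.941), Snrnp27 and Arhgef2, and Ccl3 to the integrin gene Itgax (r = 0.904), Cdyl and Cd244a.

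Within the NK gate the transcripts were spread unevenly over cells. Ccl5 was near uniform, with a median of 63 UMIs per cell, and the richest 5% of cells held 14.8% of its UMIs. For Xcl1, Ccl3, Ccl4 and Ifng the richest 5% held 53.0%, 48.6%, 50.3% and 43.4%. A single NK-gated cell held up to 445 Ccl4 UMIs, against a median of 3. Thinned to 2000 UMIs, 74.2% of the 182 cells with Ccl3 also held Ccl4, against 45.0% of the 289 without Ccl3. Of the 177 thinned cells with Xcl1, 71.2% held Ccl4, against 47.3% of the 294 without. Ifng was found in 32.1% of the 265 cells with Ccl4 and in 15.05% of the 206 without.

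Every NK-gated cell held at least 1 of the 5 transcripts. All 5 were found in 15.8% of the 323 gonadotropin and 24.0% of the 150 untreated NK-gated cells. In ILC1 all 5 were found in 7.14% of 28 gonadotropin and 14.8% of 27 untreated cells. In memory-type T cells none of the 5 was found in 20.8% of 173 gonadotropin and 17.2% of 122 untreated cells. These shares sum the mice of a group and were not tested.

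**Figure D2:**
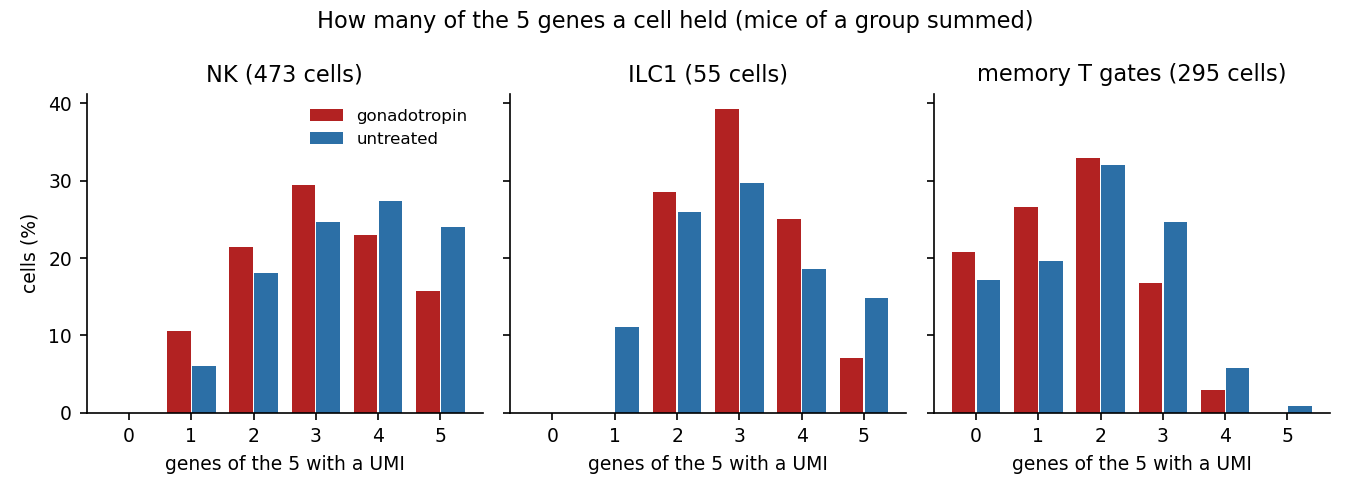
Share of cells (%, y axis) by how many of the 5 genes had a UMI (x axis) in the NK, ILC1 and memory-type T gates, gonadotropin in red and untreated in blue, mice of a group summed. Cells with all 5 were 15.8% of gonadotropin and 24.0% of untreated NK-gated cells.

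The first comparison asked whether ovarian leukocytes as a whole carried more of these signals after gonadotropin. Summed over all cells of a mouse, Xcl1 and Ccl5 rose, and the other 3 genes did not pass the test. Such sums cannot tell more cells of a type from more RNA per cell. Xcl1 stood at 185, 68.3, 210, 157 and 233 CPM in gonadotropin mice 1 to 5 and at 36.1, 103, 55.2, 82.1 and 58.3 CPM in untreated mice 1 to 5. Gonadotropin mouse 2 lay within the untreated range and the other 4 lay above it. The log2 fold change was 1.29 ± 0.30 (SE, adjusted p = 0.0189, edgeR quasi-likelihood test with Benjamini-Hochberg adjustment over all genes tested).

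Ccl5 stood at 2560, 908, 1485, 1943 and 1740 CPM in gonadotropin mice and at 696, 953, 897, 1050 and 717 CPM in untreated mice. Again gonadotropin mouse 2 lay within the untreated range and the other 4 above it. The log2 fold change was 0.94 ± 0.21 (SE, edgeR adjusted p = 0.0148). Called genes were 1027 of 11266 tested in this comparison, or 9.12%, in both directions, and the 5 genes gave 2 of 5.

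Ccl4 averaged 385 ± 214 CPM in gonadotropin and 138 ± 105 CPM in untreated mice (SD, n = 5 each), with a log2 fold change of 1.41 ± 0.48 (SE, edgeR adjusted p = 0.0832). Ccl3 averaged 99.6 ± 40.3 and 50.2 ± 21.9 CPM in gonadotropin and untreated mice (0.95 ± 0.33, edgeR adjusted p = 0.0846). Ifng averaged 27.6 ± 12.1 and 16.8 ± 6.10 CPM in gonadotropin and untreated mice (0.70 ± 0.30, edgeR adjusted p = 0.175). In all 3 the groups overlapped. Without gonadotropin mouse 2 all 5 genes passed the test, Ccl3 at 1.16, Ccl4 at 1.66 and Ifng at 0.90, and without untreated mouse 2 Ccl4 passed at 1.99 on the log2 scale. Over the refits that each left out 1 mouse, 682 to 1063 of all genes tested were called, against 1027 with all mice.

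The cell mix differed between the groups. NK-gated cells made up 16.5%, 5.29%, 14.8%, 14.3% and 13.5% of the cells of gonadotropin mice 1 to 5, against 4.16%, 7.08%, 8.81%, 6.08% and 5.10% in untreated mice. The same 4 gonadotropin mice that stood above the untreated range for Xcl1 and Ccl5 stood above it here, and mouse 2 did not. A link between this share and those levels was not tested. Memory-type T cells averaged 7.40 ± 1.92% of gonadotropin and 5.21 ± 1.15% of untreated cells (SD, n = 5 each), and B cells 42.7 ± 3.21% and 54.3 ± 4.47%. When the same number of cells of each gate was drawn from every mouse, 18 from the NK gate among them, the log2 fold changes were 0.41 ± 0.24 for Xcl1 (SE, edgeR adjusted p = 0.457) and 0.15 ± 0.12 for Ccl5 (adjusted p = 0.585), and that of Ifng turned to -0.32 ± 0.21 (adjusted p = 0.513). This draw took 1 cell a mouse from ILC1 and from CD8 memory-type cells. It took 0 from the undivided NK and ILC cells, which held 12.8% of Xcl1 UMIs in gonadotropin and 3.22% in untreated mice. Erythrocyte genes summed to 47.3 to 19998 CPM in gonadotropin mice, against 4.30 to 6.14 CPM in untreated mice. All 4 tested members of the erythrocyte list rose, and their part in these results was not tested.

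**Figure D3:**
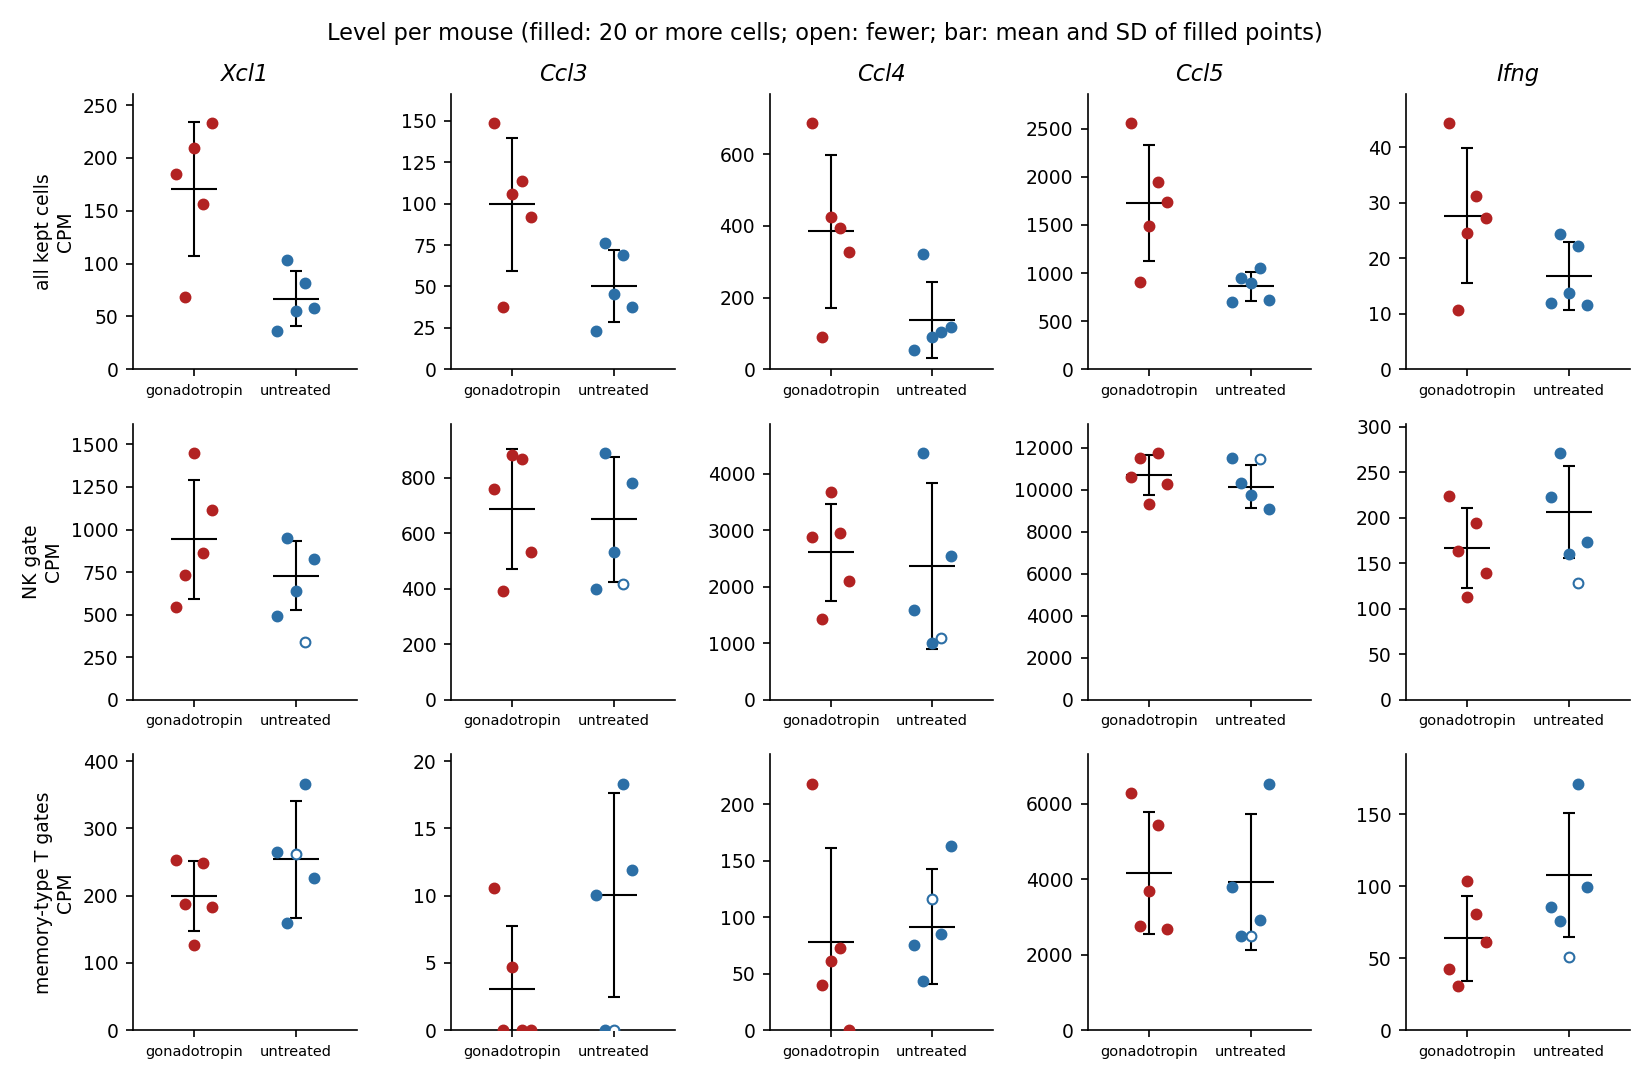
CPM of each gene per mouse in all cells, NK-gated cells and memory-type T cells, gonadotropin in red on the left and untreated in blue on the right; bars are mean and SD over mice with at least 20 cells, and open points have fewer. In all cells 4 of 5 gonadotropin mice lay above every untreated mouse for Xcl1 and Ccl5, while in the NK gate the groups overlapped for all 5 genes.

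NK-gated cells held 60.5% of all Xcl1 UMIs in gonadotropin and 52.5% in untreated mice, 84.1% and 66.8% of Ccl3, 81.3% and 82.5% of Ccl4, 69.1% and 58.5% of Ccl5, and 72.6% and 59.9% of Ifng. ILC1 added 13.7% of Xcl1 in gonadotropin and 21.5% in untreated mice, and the undivided NK and ILC cells 12.8% (13 cells) and 3.22% (5 cells). T cells held 10.6% and 19.0% of Xcl1, 24.9% and 33.0% of Ccl5, and 19.6% and 31.1% of Ifng, gonadotropin before untreated. Cells outside every gate held 4.23% of Ccl3 in gonadotropin and 12.2% in untreated mice. These shares were not tested.

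**Figure D4:**
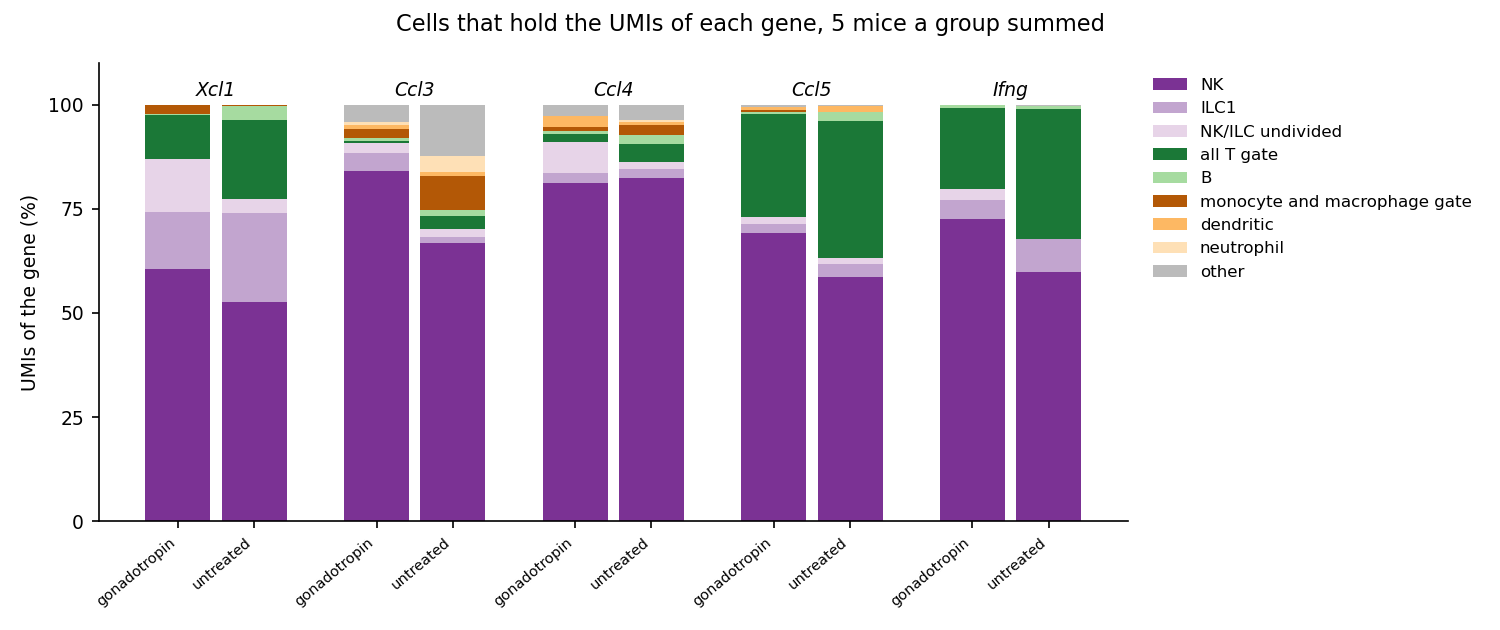
Share of the UMIs of each gene (%, y axis) held by each gate, 5 mice a group summed, gonadotropin left of untreated. The NK gate held the largest part of each gene in both groups, from 52.5% for Xcl1 in untreated to 84.1% for Ccl3 in gonadotropin mice.

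The second comparison asked whether NK cells themselves changed these transcripts. None of the 5 passed the test in the NK gate. Of 5085 genes tested there, 2 were called, or 0.0393%. The comparison held 5 gonadotropin and 4 untreated mice, because untreated mouse 4 had 18 NK-gated cells and the minimum was 20. Ccl5 stood at 10615, 11519, 9333, 11718 and 10266 CPM in gonadotropin mice 1 to 5 and at 11489, 10318, 9721, 11476 and 9056 CPM in untreated mice 1 to 5. The groups overlapped nearly fully, and the log2 fold change was 0.07 ± 0.06 (SE) and did not pass the edgeR test.

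Xcl1 stood at 545, 734, 1447, 865 and 1117 CPM in gonadotropin and at 491, 951, 640, 337 and 829 CPM in untreated mice. Its log2 fold change was 0.29 ± 0.19 (SE, edgeR adjusted p = 0.747). Gonadotropin mice 3 and 5 lay above every untreated mouse. Ifng stood at 224, 164, 113, 194 and 139 CPM in gonadotropin and at 223, 271, 160, 128 and 173 CPM in untreated mice, with a log2 fold change of -0.27 ± 0.19 (SE, edgeR adjusted p = 0.775).

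Ccl3 stood at 760, 392, 883, 869 and 533 CPM in gonadotropin and at 399, 888, 532, 417 and 780 CPM in untreated mice (log2 fold change 0.06 ± 0.17, edgeR adjusted p = 0.973). Ccl4 stood at 2880, 1432, 3673, 2955 and 2107 CPM in gonadotropin and at 1596, 4360, 997, 1099 and 2545 CPM in untreated mice (0.10 ± 0.23, edgeR adjusted p = 0.959). For Ccl3 both groups covered nearly the same range, for Ccl4 the untreated range enclosed that of the gonadotropin mice, and the sign of either fold change turned when single mice were left out.

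The share of NK-gated cells with a Ccl3 UMI had another picture. It was 58.1%, 45.0%, 53.5%, 51.7% and 44.9% in gonadotropin mice 1 to 5 and 66.7%, 69.6%, 67.9%, 66.7% and 67.6% in untreated mice 1 to 5. The groups did not overlap, while the Ccl3 level did. Over mice with at least 20 cells the means were 50.6 ± 5.68% and 67.9 ± 1.21% in gonadotropin and untreated mice (SD, n = 5 and 4; exact two-sided permutation p = 0.00794, the smallest that 5 against 4 mice can give, adjusted p = 0.756 over 11335 genes). Of these genes 91, or 0.803%, were lower after gonadotropin without overlap.

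After thinning to 2000 UMIs the Ccl3 share ran over 30.6 to 46.5% in gonadotropin mice and over 37.8 to 54.3% in untreated mice, the groups overlapped, and the difference was -8.24 points (n = 4 each, exact permutation p = 0.200, adjusted p = 0.953 over 9413 genes). Gonadotropin mouse 2 and untreated mouse 4 had fewer than 20 thinned cells and were left out. Cells with a Ccl3 UMI held 10.4 UMIs on average in gonadotropin and 6.95 in untreated mice. The thinned Ccl4 share ran over 47.5 to 57.1% in gonadotropin mice and over 57.1 to 71.4% in untreated mice (n = 4 each, exact permutation p = 0.0571, adjusted p = 0.896). Thinned shares averaged 22.5 ± 4.16% and 29.8 ± 5.98% for Ifng, 38.1 ± 8.87% and 43.2 ± 5.53% for Xcl1, and 98.7 ± 1.08% and 99.3 ± 1.35% for Ccl5 in gonadotropin and untreated mice (SD, n = 4 each; exact permutation p = 0.114, 0.286 and 0.486). After adjustment no gene passed in this test, in which 307 had an unadjusted p under 0.05 and the smallest possible p was 0.0286: 0% of 9413 genes were called.

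**Figure D5:**
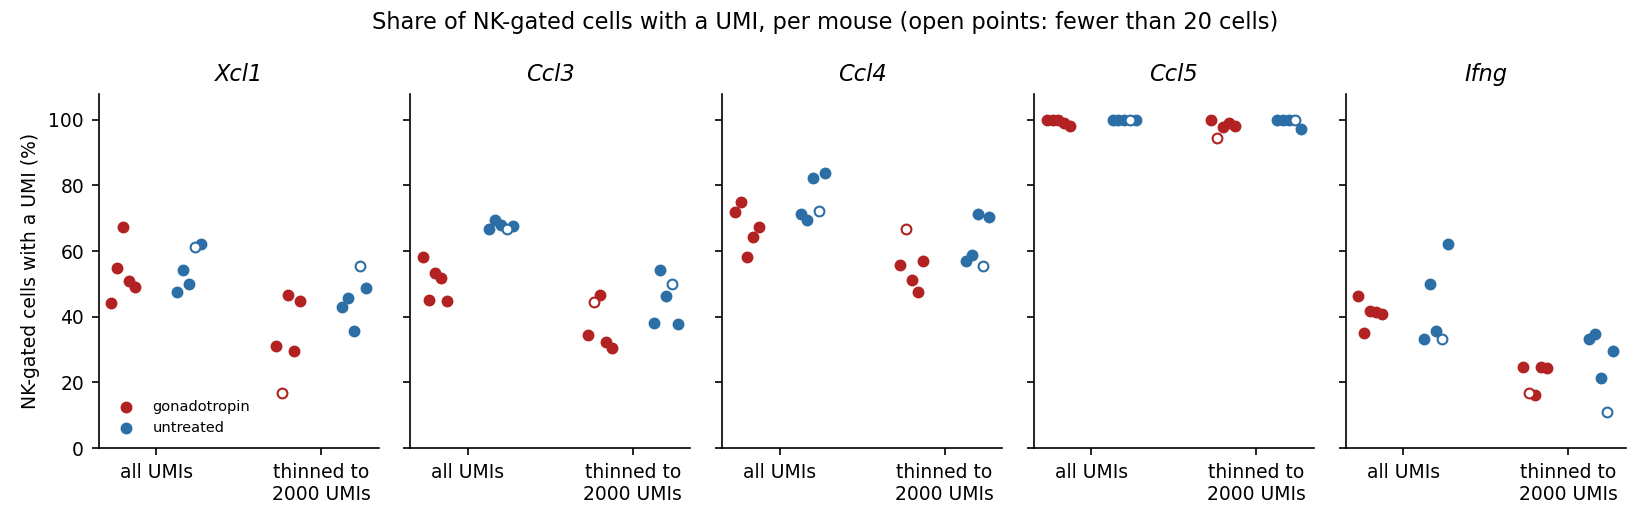
Share of NK-gated cells with a UMI (%, y axis) per mouse for each gene, with all UMIs and after thinning each cell to 2000 UMIs, gonadotropin in red left of untreated in blue; open points have fewer than 20 cells. The Ccl3 shares lay at 44.9 to 58.1% in gonadotropin mice, against 66.7 to 69.6% in untreated mice, with all UMIs, and overlapped after thinning.

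Of the surrounding genes in NK cells, Egr1 rose, with a log2 fold change of 1.73 ± 0.33 (SE, edgeR adjusted p = 0.0341). It encodes an immediate early transcription factor, and it is also on the list of dissociation and early response genes, of which 1 of 10 tested passed. On that list the summed level was 2094 to 3003 CPM in gonadotropin and 2210 to 2428 CPM in untreated NK-gated cells. Egr1 was 1 of 14 tested inducers and regulators that passed. The other gene called in the NK gate was Gm42418 (0.61 ± 0.08, SE, edgeR adjusted p = 0.000317). Gm42418 was also called in memory-type T cells (0.49 ± 0.07, SE, edgeR adjusted p = 0.000825). Il18rap, a subunit of the IL-18 receptor that drives interferon gamma in NK cells, had a log2 fold change of 0.42 ± 0.14 (edgeR adjusted p = 0.331) and Tbx21 one of 0.24 ± 0.13 (adjusted p = 0.718). None of 14 tested interferon gamma response genes or 3 other cytokines passed. The median log2 fold change was 0.02 over the response genes and -0.01 over all genes tested. Erythrocyte genes summed to 34.3 to 82.5 CPM in gonadotropin and 0 to 23.0 CPM in untreated NK-gated cells, and the share of that signal in these values was not tested.

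ILC1 was not tested, because no mouse reached the minimum of 20 cells set here. Summed over mice, the 28 gonadotropin cells held 454 Xcl1 UMIs (1827 CPM) and the 27 untreated cells 314 (1133 CPM). Ccl5 came to 3150 CPM in gonadotropin ILC1 and 2143 CPM in untreated ILC1, and Ifng to 105 and 101 CPM. Ccl3 came to 358 CPM in gonadotropin ILC1 and 54.1 CPM in untreated ILC1, where the 2 richest gonadotropin cells held 67.4% of the UMIs. These sums have no replicate check.

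The third comparison concerned T cells. In the whole T gate none of the 4 tested genes passed, and Ccl3 was below the filter on low counts. Called genes were 53 of 8093 tested, or 0.655%. Ccl5 came closest. It stood at 2037, 1356, 1573, 1831 and 1815 CPM in gonadotropin mice 1 to 5 and at 873, 817, 826, 1590 and 1393 CPM in untreated mice 1 to 5. Untreated mice 4 and 5 lay within the gonadotropin range and the other 3 lay below it. The log2 fold change was 0.62 ± 0.15 (SE, edgeR adjusted p = 0.0550). It passed without gonadotropin mouse 2 (0.69), untreated mouse 4 (0.75) or untreated mouse 5 (0.73), and in cells of T clusters (0.67).

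Memory-type T cells held 6576 of 9001 Ccl5 UMIs of gonadotropin T cells and 4070 of 6005 of untreated T cells, and none of the 5 genes passed in them. Summed over the CD4, CD8 and double-negative memory gates, Ccl5 stood at 6281, 2751, 3679, 5451 and 2695 CPM in gonadotropin and at 3788, 2511, 2495, 2911 and 6532 CPM in untreated mice. The groups overlapped, and the log2 fold change was 0.11 ± 0.22 (SE, n = 5 and 4, edgeR adjusted p = 0.992). Here 2 of 4619 genes were called, or 0.0433%, none of them among the 4 tested of the 5. Memory-type cells were 173 of 591 gonadotropin and 122 of 660 untreated T cells. Ifng stood at 42.2, 30.8, 104, 80.9 and 61.1 CPM in gonadotropin and at 85.2, 75.8, 50.5, 171 and 99.2 CPM in untreated memory-type cells (-0.70 ± 0.30, edgeR adjusted p = 0.857). Xcl1 had a log2 fold change of -0.24 ± 0.21 there and Ccl4 one of -0.14 ± 0.48.

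The thinned share of memory-type T cells with Xcl1 was 18.2 ± 9.14% in gonadotropin and 33.2 ± 7.53% in untreated mice (SD, n = 5 and 4; exact permutation p = 0.0476, adjusted p = 0.996 over 9855 genes). In this test 0% of genes were called and 471 had an unadjusted p under 0.05. In the whole T gate the thinned Xcl1 share was 6.08 ± 2.72% and 6.71 ± 3.10% (SD, n = 5 each; exact permutation p = 0.762), and there too 0% of 9321 genes were called. Ccl3 was found in 5 of 591 gonadotropin and 9 of 660 untreated T cells.

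Around these genes in the T gate, Il18rap rose by 0.95 ± 0.17 on the log2 scale (SE, edgeR adjusted p = 0.00908). Zfp36, whose product tristetraprolin destabilises cytokine mRNAs, fell by 0.94 (SE 0.16, edgeR adjusted p = 0.00457), and Ltb, the membrane anchor of lymphotoxin, fell by 0.35 (SE 0.08, edgeR adjusted p = 0.0457). In memory-type T cells none of these genes passed. There the log2 fold changes were 0.23 ± 0.18 for Il18rap, -0.91 ± 0.32 for Zfp36 and -0.33 ± 0.13 for Ltb (SE, edgeR adjusted p = 0.956, 0.627 and 0.804). In the T gate Il18rap and Zfp36 were the 2 of 15 regulators that passed and Ltb the 1 of 6 other cytokines, while none of 19 interferon gamma response genes did. Of all 8093 genes tested there, 53, or 0.655%, were called. Of the dissociation and early response list, 2 of 13 tested genes rose and 3 fell. Hbb-bs, the 1 tested erythrocyte gene, rose in the T gate, and its part in these values was not tested.

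Whether NK cells changed by another amount than T cells was tested directly, with the mouse as a term and 5 gonadotropin and 4 untreated mice. Of 8270 genes 2 were called, or 0.0242%, S100a6 and Klra1, and none of the 5. The difference of the log2 fold changes, NK minus T, was -0.70 ± 0.14 for Ccl5 (SE, edgeR adjusted p = 0.0818). It passed without gonadotropin mouse 2 (-0.80, adjusted p = 0.0432) and without untreated mouse 5 (-0.93, adjusted p = 5.26e-05). For Ifng it was -0.71 ± 0.37 (adjusted p = 0.916), for Xcl1 -0.32 ± 0.27, for Ccl4 0.17 ± 0.45 and for Ccl3 2.11 ± 0.87 (adjusted p = 0.769). T cells held 42 Ccl3 UMIs in all, 22 of them in 1 cell of untreated mouse 3.

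Monocytes and macrophages, known sources of CCL3 and CCL4, were compared over 5 gonadotropin and 3 untreated mice, since untreated mice 1 and 3 had fewer than 20 such cells. Ccl3 stood at 8.45, 14.9, 16.3, 23.2 and 21.6 CPM in gonadotropin mice 1 to 5 and at 172, 44.5, 76.6, 67.9 and 26.1 CPM in untreated mice 1 to 5. All 5 gonadotropin mice lay below all 5 untreated mice, on 3 to 18 UMIs a gonadotropin mouse and 11 to 29 UMIs an untreated mouse. Of the 6251 genes tested in this gate 44, or 0.704%, were likewise lower without overlap over the 10 mice. The share of cells with a Ccl3 UMI did overlap over the 8 mice tested, at 0 to 5.56% in gonadotropin mice, against 3.45 to 9.09% in untreated mice after thinning (exact permutation p = 0.161), and the unthinned difference was -3.42 points (exact permutation p = 0.232). With all 10 mice, admitted at a minimum of 10 thinned cells, the ranges again overlapped (exact permutation p = 0.0397, adjusted p = 0.922). The log2 fold change over the 8 mice tested was -1.25 ± 0.40 (SE, edgeR adjusted p = 0.418). No gene was called among 6251 (0%) by edgeR, 497 had an unadjusted p under 0.05, and DESeq2 called 34. Ccl4 had a log2 fold change of -0.34 ± 0.56. The dissociation and early response list summed to 2601 to 3456 CPM in this gate in gonadotropin mice and 3063 to 5237 CPM in untreated mice, and its part in the Ccl3 values was not tested.

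Ccl5 in the same gate stood at 245, 4.26, 46.8, 47.8 and 27.0 CPM in gonadotropin and at 0, 4.05, 4.25, 4.85 and 1.63 CPM in untreated mice. Of gonadotropin mouse 1, a single cell held 97.7% of these UMIs, and 1 cell held all 76 Xcl1 UMIs of the gate in that mouse. The log2 fold change was 4.47 ± 1.44 (SE, edgeR adjusted p = 0.389). The thinned share of cells with a Ccl5 UMI was 2.78 to 6.25% in gonadotropin mice and 0% in the 3 untreated mice (exact permutation p = 0.0357, adjusted p = 0.874 over 9369 genes, of which 0% were called). Of these genes 205, or 2.19%, were higher without overlap. Not thinned, the untreated mice stood at 1.96 to 4% (exact permutation p = 0.0714), and thinned to 1000 UMIs the difference was 1.59 points (exact permutation p = 0.411). In B cells the share was 1.47 ± 0.793% in gonadotropin and 1.13 ± 0.779% in untreated mice (SD, n = 5 each; exact permutation p = 0.508), with 0% of 9227 genes called. None of the 5 genes passed the filter on low counts in the B gate, where 138 of 9108 genes, or 1.52%, were called.

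Response genes and regulators were read in the same sums over all cells. Of 23 interferon gamma response genes 2 rose, Irf8 and B2m, and Cd274 fell, beside 9.12% of all genes called. Of 17 inducers and regulators 9 rose, among them Tbx21 (1.09 ± 0.19), Eomes (1.03 ± 0.27) and Il18rap (1.32 ± 0.18), and Zfp36 fell. Of 11 other cytokines Fasl rose and Ltb fell. The shares of NK and B cells given above also differed between the groups, and their part in these sums was not tested. Within the T gate alone Il18rap, Zfp36 and Ltb were called in the same directions, but none of them passed in memory-type T cells. The proportion of memory-type cells among T cells, given above, also differed between the groups, and its part was not tested.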

How the data were processed

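The authors deposited 1 combined table of UMI counts per gene and cell with cell metadata that name each cell's pool, hashtag class and mouse. Tools given in the submitters' processing notes are Seurat, Cell Ranger and bcl2fastq, with build mm10; versions, annotation and strand of counting are not given in the sources used here. From these counts, 4918 of 5031 singlets among 6468 barcodes were kept, which had 500 genes or more and a mitochondrial share below 10%. Doublets were those of the deposited hashtag calls, so doublets within 1 mouse remain. Cells were gated on UMIs of marker genes; 1 listed marker had no entry in the table. Mice gave 2559097 to 7097779 UMIs each. Counts were summed per gate and mouse with at least 20 cells and tested with edgeR 4.0.16 (TMM scaling, filterByExpr, quasi-likelihood test, R 4.3.3) over all genes, with an adjusted p threshold of 0.05. Shares of cells with a UMI were tested by exact two-sided permutation over mice after thinning to 2000 UMIs. Floors use 3 counts, and intervals and floors cover counting error only. Alternatives were other size factors, no filter, DESeq2 1.42.0, Leiden clusters (scanpy 1.11.5), other cell minimums and single mice left out. On simulated data the tests recovered 96% of 100 genes changed 2-fold in the NK gate, with 17 false calls, and 54% in the monocyte and macrophage gate, with 11. The changed genes were drawn from those averaging more than 20 UMIs a mouse, with 1 dispersion for all genes of a gate. Recovery of sparser genes, such as Ccl3 in the monocyte and macrophage gate, was not simulated. All 5 genes were named with the 3 genes most alike in level. Also named were both genes called in the NK gate and genes of the regulator and cytokine lists that passed in the T gate. Genes that passed in the sums over all cells, and those named beside them, were chosen after their values were seen. The receptor list is not reported here. The genes and lists were chosen with earlier results of these data known.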

Additional observations from a re-analysis of the deposited data

Results flagged for a closer look

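In 11 of 63 sets of 4 or 5 mice, a single mouse stood apart from the others by more than Dixon's 95% limit. Chance passes that limit in about 1 of 20 sets (5%). Summed over all cells, Ccl4 stood at 321 CPM in untreated mouse 2, against 55.1 to 117 CPM in the other untreated mice. In T cells, Ccl3 stood at 27.3 CPM in untreated mouse 3, all from 1 cell, against 1.65 to 5.12 CPM. Ccl4 stood at 65.4 CPM in T cells of gonadotropin mouse 1, with 74.3% from 1 cell, against 13.8 to 21.9 CPM. Ifng stood at 52.9 CPM in T cells of untreated mouse 4, against 11.4 to 19.8 CPM, and no cell there held more than 16.1% of its UMIs.

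In the monocyte and macrophage gate of gonadotropin mouse 1, Xcl1 stood at 214 CPM, all from 1 cell, against 0 in the other gonadotropin mice, and Ccl5 at 245 CPM, against 4.26 to 47.8 CPM. In B cells of untreated mouse 2, Xcl1 stood at 14.5 CPM (97.7% from 1 cell), Ccl3 at 2.96 CPM (77.8%) and Ccl4 at 18.1 CPM (90.9%). The other untreated mice had 0 to 3.63, 0.534 to 0.909 and 0.539 to 2.73 CPM of these genes in B cells. In B cells of gonadotropin mouse 4, Ccl5 stood at 29.2 CPM, with 78.7% from 1 cell, against 2.37 to 5.84 CPM. In B cells of gonadotropin mouse 1, Ifng stood at 1.21 CPM on 2 UMIs, against 0 to 0.311 CPM.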

How the results depend on the processing

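Of 620 recomputed values, 522 kept their direction and their side of the threshold or stayed within the stated range, and 39 changed sign. The cause of these changes was not tested. Drawing equal cells per gate evens out the mix of the gates drawn. That draw also cuts the cells used and leaves out gates that any mouse lacked, such as the undivided NK and ILC cells. With equal cells per gate, 62 genes were called over all cells, and the log2 fold changes were 0.41 for Xcl1, 0.15 for Ccl5 and -0.32 for Ifng. Without the filter on low counts Ccl3 (0.95, edgeR adjusted p = 0.0486) and Ccl4 (1.40, 0.0443) passed over all cells, as did Ccl5 in T cells (0.62) and in monocytes and macrophages (4.48). Without that filter the called genes were 32 in NK cells, 265 in T cells, 128 in monocytes and macrophages, 349 in B cells and 62 in memory-type T cells. DESeq2 called 96 in T cells, 34 in monocytes and macrophages, 328 in B cells and 8 in memory-type T cells, and gave -0.0057 for Ccl4 in T cells. In NK cells 5 genes were called with at least 10 cells a mouse, 1 in the whole NK and ILC gate and 4 in NK clusters, where Ccl5 was at -0.033. In T clusters 134 genes were called, Ccl5 passed at 0.67 and Ifng was at -0.061. Without B cells that held a T or NK UMI, an alternative chosen after seeing the data, 217 were called in B cells. In points of share, Xcl1 in NK cells differed by 2.45 when thinned to 1000 UMIs, Xcl1 in T cells by 0.615 when not thinned, and Ccl4 in T cells by -0.218 when thinned to 1000.

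Leaving out 1 mouse at a time, called genes ranged from 682 to 1063 over all cells, 2 to 7 in NK cells, 18 to 96 in T cells, 0 to 3 in monocytes and macrophages, 48 to 206 in B cells, 1 to 5 in memory-type T cells and 0 to 8 for NK minus T. Log2 fold changes over all cells ranged from 0.77 to 1.17 for Ccl3, 1.11 to 1.99 for Ccl4 and 0.48 to 0.90 for Ifng. In NK cells they ranged from -0.072 to 0.25 for Ccl3 and -0.15 to 0.59 for Ccl4. In T cells they ranged from -0.53 to 0.47 for Ccl4, 0.53 to 0.75 for Ccl5 and -0.14 to 0.47 for Ifng. In memory-type T cells they ranged from -0.89 to 0.36 for Ccl4 and -0.091 to 0.47 for Ccl5. NK minus T ranged from -0.52 to 0.71 for Ccl4 and -0.93 to -0.59 for Ccl5. Differences in share ranged from -1.23 to 0.727 points for Xcl1, -0.235 to 0.603 for Ccl4 and -0.836 to 0.925 for Ifng in T cells, and from -5.86 to 3.81 for Ccl5 in memory-type T cells.

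No paired analysis was possible because the mouse numbers only name hashtags within each pool. The memory-type T cell sum was chosen after the cell numbers were seen. ILC1, CD4 memory and CD8 memory gates had no mouse with 20 cells and the double-negative memory gate had 1, so their comparisons, and NK against ILC1, were not run. With 5 mice a group in 1 pool each, the share tests could not pass after adjustment over all genes unless many genes separated the groups.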

Other observations

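Among 94 cells outside every gate, 7 held at least 10 UMIs of Ccl3 and Ccl4 together, and 6 of these also held both Cd200r3 and Gata2, transcripts known from basophils and mast cells. These 6 cells, 4 from gonadotropin and 2 from untreated mice, held 4 to 84 Ccl3 and 10 to 69 Ccl4 UMIs each. They account for 205 of 218 Ccl3 UMIs and 262 of 280 Ccl4 UMIs outside the gates. In all, 9 of the analysed cells held both Cd200r3 and Gata2. They were picked after their values were seen, were given no cell type and were not tested.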
